A study of Mus musculus with 24 samples.

Results

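The Mir106b cluster is a group of neighbouring microRNA (miRNA) genes whose main products are miR-106b-5p, miR-93-5p and miR-25-3p. Its 3 members, named mmu-miR-106b-5p, mmu-miR-93-5p and mmu-miR-25-3p on the array, were found by those names among its 1881 miRNAs, and each was measured by 2 probes. Serum exosome miRNA was profiled on 24 one-colour arrays from male BALB/c mice, in 6 groups of 4 arrays, so n = 4 for every group value. The TSN groups received 80 mg/kg toosendanin (TSN), a plant triterpenoid that injures the liver at high doses, for 3, 9 or 21 days, and the control groups received vehicle over the same 3 periods. Serum was drawn the day after the last dose. Neither the age of the mice nor the pooling of animals is given in the labels, so every p-value refers to the spread between these arrays, which may be technical. The study's title names miR-106b-5p in adaptation to drug injury of the liver and in liver regeneration.

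A miRNA is cut from a hairpin precursor and guides silencing of messenger RNAs that pair with its seed, the bases near its 5′ end. The cluster is transcribed with its host gene Mcm7, a replication licensing helicase subunit, and E2F factors drive that transcription in proliferating cells. miR-106b-5p and miR-93-5p belong to the miR-17 seed family, whose targets known from human cells include the cell cycle inhibitor CDKN1A, and miR-25-3p belongs to the miR-92 seed family, whose targets known from human cells include the cell death gene BCL2L11. Circulating miRNA comes from blood cells and tissues, and red cells and platelets are large sources of it in serum.

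The mature sequences show which members can share targets. They are credited to RefSeq (GRCm38.p6) and written 5′ to 3′, with the seed (bases 2 to 8) in capitals. The last 4 are miRNAs of other loci with a member's seed that were measured on these arrays.
miR-106b-5p: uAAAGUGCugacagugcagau
miR-93-5p: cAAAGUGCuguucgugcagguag
miR-25-3p: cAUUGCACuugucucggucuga
miR-17-5p: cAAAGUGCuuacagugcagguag
miR-20a-5p: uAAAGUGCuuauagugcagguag
miR-20b-5p: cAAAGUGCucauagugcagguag
miR-92a-3p: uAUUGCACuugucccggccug

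miR-106b-5p and miR-93-5p have the same seed and 16 identical bases over the 21 positions compared from the 5′ end, whereas miR-106b-5p and miR-25-3p share 5 of 21. All 3 hairpins lie on the minus strand of chromosome 5 within the span of Mcm7 (chr5:138164583-138172111). In transcribed order they are Mir106b (chr5:138165737-138165818), Mir93 (chr5:138165523-138165610) and Mir25 (chr5:138165321-138165404), with 126 and 118 bases between neighbours. Together they cover 498 bases. The hairpins are shown with the measured arm in capitals, which is the 5′ arm in Mir106b and Mir93 and the 3′ arm in Mir25.
Mir106b: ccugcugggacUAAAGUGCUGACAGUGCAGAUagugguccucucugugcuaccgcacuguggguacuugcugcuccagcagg
Mir93: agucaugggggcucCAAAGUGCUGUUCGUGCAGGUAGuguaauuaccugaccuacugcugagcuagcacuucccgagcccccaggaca
Mir25: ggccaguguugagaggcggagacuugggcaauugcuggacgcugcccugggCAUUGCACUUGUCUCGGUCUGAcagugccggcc

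The probes used pair with bases 5 to 21 of miR-106b-5p, 8 to 23 of miR-93-5p and 5 to 22 of miR-25-3p. Each thus reaches the 3′ end and takes in part of the seed. The probe used for each member is shown with the bases that pair with the seed in capitals.
miR-106b-5p probe: atctgcactgtcaGCAC
miR-93-5p probe: ctacctgcacgaacaG
miR-25-3p probe: tcagaccgagacaaGTGC

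No probe of a member was fully matched by a miRNA of the same seed. The closest matches were miR-17-5p with 15 bases of the 17-base miR-106b-5p probe, miR-20a-5p with 13 of the 16 bases of the miR-93-5p probe, and miR-92a-3p with 15 of the 18 bases of the miR-25-3p probe. Cross-hybridisation was not tested.

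The TSN arrays were brighter than the control arrays. The 75th percentile of the unscaled signal lay between 737 and 1750 on the 12 TSN arrays and between 73.5 and 609 on the 12 control arrays, and 378 to 467 against 183 to 351 miRNAs were well above background. The group difference in log2 of this percentile (TSN minus control) was 2.85, 3.56 and 2.55 at days 3, 9 and 21, and that of the labelling spike-ins was 1.74, 1.82 and 1.74. For the hybridisation spike-ins it was -0.08, -0.01 and -0.16 at the same days. Every slide carried a single arm, and an effect of TSN and one of the slide cannot be told apart. The contrasts that lie within a slide are TSN day 21 against TSN day 9 and control day 9 against control day 3. Levels are given as log2 of the signal over the array's own 75th percentile, and "rose" and "fell" mean a change relative to that percentile.

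miR-106b-5p was higher on every TSN array than on any control array of the same day, at all 3 days. miR-93-5p and miR-25-3p were higher in TSN at day 9, and at days 3 and 21 their groups overlapped. All 3 members were well above background on all 24 arrays.

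Replicates 1 to 4 of TSN day 3 gave miR-106b-5p scaled levels of 0.45, -0.04, 0.10 and 0.58, against -1.07, -0.97, -0.85 and -1.49 in control day 3. At day 9 the levels were 1.51, 1.59, 1.13 and 1.31 in TSN and -1.37, -0.48, -1.10 and -0.99 in control. At day 21 they were 0.54, 0.36, 0.00 and 0.30 in TSN and -0.69, -0.94, -0.93 and -0.45 in control. The day 9 TSN arrays stood highest of all, and the lowest TSN array of any day was above the highest control array of any day. This separation across days was not compared with the other tested miRNAs, and the arms were on separate slides. The mean of miR-106b-5p at days 3, 9 and 21 was 0.27 ± 0.288, 1.39 ± 0.205 and 0.30 ± 0.223 in TSN, and -1.10 ± 0.28, -0.98 ± 0.374 and -0.75 ± 0.232 in control (SD, n = 4).

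miR-93-5p, which shares the miR-106b-5p seed, gave scaled levels of -1.06, -1.58, -1.17 and -0.81 in TSN day 3 and -1.10, -0.97, -0.89 and -1.43 in control day 3. At day 9 it gave -0.01, 0.06, -0.25 and 0.00 in TSN and -1.46, -0.63, -1.31 and -1.09 in control. At day 21 it gave -0.76, -1.19, -1.30 and -1.13 in TSN and -0.79, -1.15, -1.0 and -0.68 in control. The groups of day 9 were apart, and those of days 3 and 21 overlapped. Its means were -1.16 ± 0.323, -0.05 ± 0.138 and -1.09 ± 0.234 in TSN, and -1.10 ± 0.238, -1.12 ± 0.361 and -0.90 ± 0.21 in control (SD, n = 4).

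miR-25-3p, the member with the other seed, gave scaled levels of 0.09, -0.77, -0.30 and 0.36 in TSN day 3 and -0.20, -0.23, 0.03 and -0.43 in control day 3. At day 9 it gave 1.05, 0.98, 0.90 and 1.03 in TSN and -0.86, -0.02, -0.25 and -0.53 in control. At day 21 it gave 0.08, -0.51, -0.65 and -0.61 in TSN and -0.43, -0.02, 0.05 and 0.13 in control. The 4 TSN day 9 arrays were close together and above every other array, while TSN day 3 was the most spread group. Its means were -0.15 ± 0.493, 0.99 ± 0.0649 and -0.42 ± 0.34 in TSN, and -0.21 ± 0.189, -0.42 ± 0.363 and -0.07 ± 0.251 in control (SD, n = 4).

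**Figure D1:**
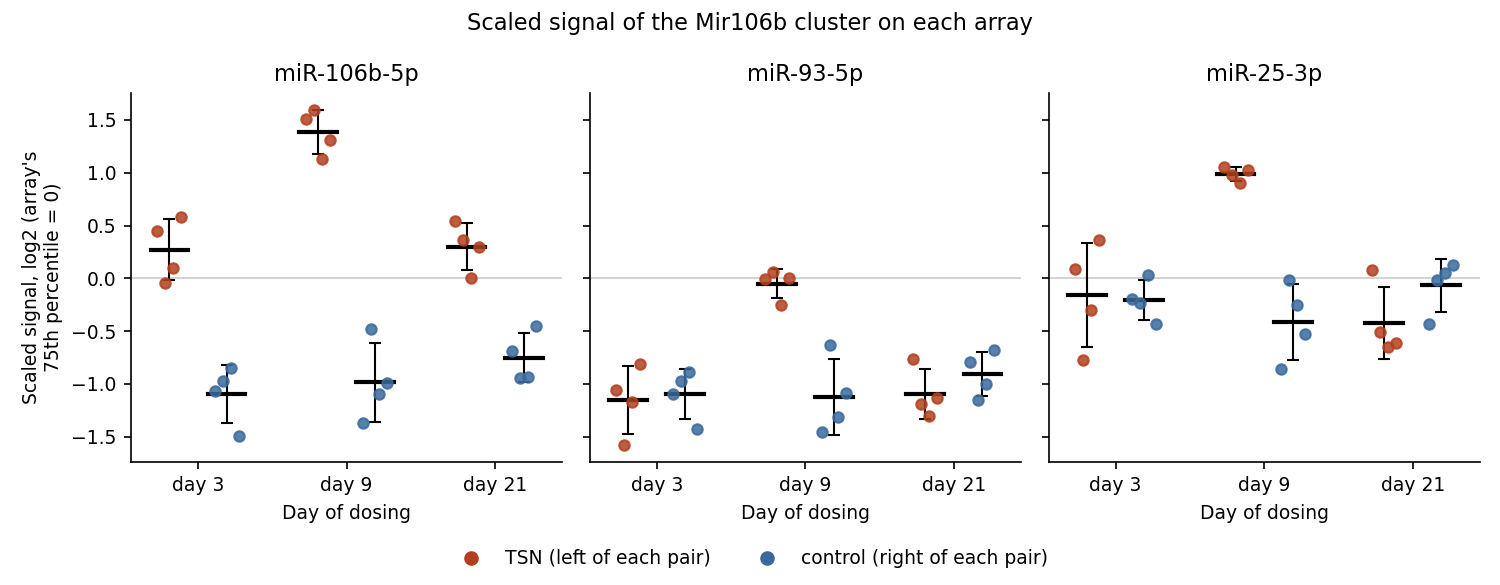
Scaled signal of each member on each of the 24 arrays, as log2 with the array's 75th percentile at 0, by day, with TSN left of control in each pair; bars give the group mean and SD of 4 arrays. TSN and control stand apart at all 3 days for miR-106b-5p and at day 9 for miR-93-5p and miR-25-3p.

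Each change was read from 1 limma fit across the 441 miRNAs tested, with Benjamini-Hochberg adjustment and a threshold of 0.05. At day 3, 1 of the 3 members was called higher, against 29.3% of all tested miRNAs called higher, and 47.8% called in either direction. miR-106b-5p rose by 1.37 (SE 0.189, limma adjusted p = 5.08e-06), and its groups did not overlap, as for 24.3% of tested miRNAs in the upward direction. The difference was -0.06 for miR-93-5p (95% interval -0.43 to 0.32, limma adjusted p = 0.866) and 0.05 for miR-25-3p (95% interval -0.40 to 0.51, limma adjusted p = 0.917).

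All 3 members rose at day 9, where 27.7% of tested miRNAs were called higher and 62.1% were called in either direction. The rise was 2.37 for miR-106b-5p (SE 0.189, limma adjusted p = 5.07e-09). miR-93-5p rose by 1.08 (SE 0.181, limma adjusted p = 4.18e-05) and miR-25-3p by 1.41 (SE 0.217, limma adjusted p = 1.61e-05). Groups did not overlap for any of the 3, which held, in the upward direction, for 24.9% of tested miRNAs. The median change of the members was 1.41, against -0.04 over all tested miRNAs.

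At day 21, 1 member was again called higher, against 23.1% of tested miRNAs called higher and 44.9% called in either direction. miR-106b-5p rose by 1.05 (SE 0.189, limma adjusted p = 0.000139), again without overlap of its groups, as for 20.9% of tested miRNAs in the upward direction. The difference was -0.19 for miR-93-5p (95% interval -0.57 to 0.19, limma adjusted p = 0.452) and -0.36 for miR-25-3p (95% interval -0.81 to 0.09, limma adjusted p = 0.204). The signs of these last differences, and of the day 3 difference of miR-93-5p, turn under other scalings of the arrays. With the labelling spike-ins as the scale, all tested miRNAs shifted up, by a median of 1.01 at day 3 and 0.66 at day 21, and relative to those medians miR-93-5p differed by 0.04 and -0.04. On that scale the day 3 differences of miR-93-5p and miR-25-3p, 1.05 and 1.16, passed (limma adjusted p = 0.00647 and 0.0108).

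The difference between TSN and control itself differed between days for all 3 members. It was larger at day 9 than at day 3 by 1.00 for miR-106b-5p (SE 0.267, limma adjusted p = 0.0117), by 1.13 for miR-93-5p (SE 0.256, adjusted p = 0.00414) and by 1.35 for miR-25-3p (SE 0.306, adjusted p = 0.00414). An increase of this kind was called for 3.85% of tested miRNAs, and the median over all of them was -0.27. The effect at day 21 minus that at day 9 was -1.32 for miR-106b-5p (SE 0.267, limma adjusted p = 0.00123), -1.27 for miR-93-5p (SE 0.256, adjusted p = 0.00123) and -1.77 for miR-25-3p (SE 0.306, adjusted p = 0.000507). A decrease was called here for 11.8% of tested miRNAs, with a median of 0.22 over all. Between days 21 and 3 the effects differed by -0.32, -0.13 and -0.41 for miR-106b-5p, miR-93-5p and miR-25-3p, with limma adjusted p of 0.494, 0.783 and 0.427, where 13.4% of tested miRNAs were called in either direction. These 3 contrasts share groups. TSN days 3 and 9 were on different slides, as were control days 9 and 21, so slide differences do not cancel in any of them. With hybridisation spike-ins the smaller effect at day 21 than at day 9 did not pass for any member (limma adjusted p = 0.0561 for each). With no scaling between arrays the larger effect at day 9 than at day 3 no longer passed for any member (limma adjusted p = 0.195, 0.153 and 0.21), and for miR-106b-5p it also missed with quantile normalization (0.72, limma adjusted p = 0.142).

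Within the TSN arm all 3 members were highest at day 9. TSN day 3 was on another slide than TSN days 9 and 21. TSN day 9 exceeded TSN day 3 by 1.11 for miR-106b-5p (SE 0.189, limma adjusted p = 0.000211), by 1.11 for miR-93-5p (SE 0.181, adjusted p = 0.000161) and by 1.14 for miR-25-3p (SE 0.217, adjusted p = 0.000517), in a comparison where 10.2% of tested miRNAs were called higher. For miR-25-3p this did not pass with hybridisation spike-ins or with no scaling (limma adjusted p = 0.0995 and 0.0801). TSN day 21 against TSN day 9, both on 1 slide, gave -1.09 for miR-106b-5p (SE 0.189, limma adjusted p = 0.000208), -1.05 for miR-93-5p (SE 0.181, adjusted p = 0.000206) and -1.41 for miR-25-3p (SE 0.217, adjusted p = 7.01e-05), where 12.7% were called lower. With no scaling these 3 did not pass (limma adjusted p = 0.0912, 0.102 and 0.0806). TSN day 21 and TSN day 3 differed by 0.03, 0.06 and -0.27, none called, against 7.03% of tested miRNAs. Among the controls no member was called between any 2 days on this scale. With the 75th percentile over all probes, control day 21 exceeded control day 9 by 0.96, 0.95 and 1.08 for miR-106b-5p, miR-93-5p and miR-25-3p, which passed (limma adjusted p = 0.0195, 0.0184 and 0.0396). Control day 9 minus control day 3, both on 1 slide, was 0.11 for miR-106b-5p, -0.02 for miR-93-5p and -0.21 for miR-25-3p, where 14.1% of tested miRNAs were called. Control day 21 minus control day 9 was 0.23, 0.22 and 0.35 in the same order of members, with 0.454% called, and control day 21 minus control day 3 was 0.34, 0.20 and 0.14, with 22.9% called.

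In the order of levels, miR-106b-5p stood highest in TSN day 9, followed by TSN day 21 and TSN day 3, which were not told apart, and then by the 3 control groups, which were not told apart from each other. For miR-93-5p and miR-25-3p, TSN day 9 stood highest and no pair of neighbours among the other groups of their order passed where it was tested.

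A factor that multiplies all signals of an array cancels when 2 members are compared within it. Quantile normalization is not such a factor and the scaling of the authors' values is unknown, and these gave 1.05 and 0.92 for miR-106b-5p minus miR-93-5p in TSN against control at day 9, where the scaled signals gave 1.29. The value of such a difference also carries the efficiency of 2 probes, and only its change between groups is compared. The log2 signal of miR-106b-5p minus that of miR-93-5p was 1.51, 1.55, 1.27 and 1.39 in TSN day 3, against 0.03, 0.00, 0.04 and -0.06 in control day 3. At day 9 it was 1.52, 1.52, 1.38 and 1.31 in TSN and 0.09, 0.16, 0.21 and 0.10 in control, and at day 21 it was 1.30, 1.55, 1.30 and 1.43 in TSN and 0.10, 0.21, 0.07 and 0.22 in control. All 12 TSN arrays lay between 1.27 and 1.55 and all 12 control arrays between -0.06 and 0.22. The shift was 1.43, 1.29 and 1.24 at days 3, 9 and 21 (two-sided exact permutation p = 0.0286 for each, which no result over 70 allocations can go below; adjusted p = 0.0429 over 9 tests). Same-numbered arrays deviated together at day 9, and a sign-flip test over 4 pairs, which cannot give a p below 0.125, did not pass at any day (exact adjusted p = 0.161 for these shifts and for those of miR-106b-5p minus miR-25-3p). Such a lack of overlap was common on these arrays: it held at days 3, 9 and 21 for 52.1%, 66% and 51.6% of the 11476 pairs among the 152 miRNAs measured on all arrays, and in 1 direction at all 3 days for 28.9% of them.

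miR-106b-5p minus miR-25-3p moved the same way. It was 0.35, 0.74, 0.40 and 0.22 in TSN day 3 against -0.87, -0.74, -0.88 and -1.06 in control day 3, and 0.47, 0.60, 0.23 and 0.28 in TSN day 9 against -0.51, -0.46, -0.85 and -0.45 in control day 9. At day 21 it was 0.46, 0.87, 0.65 and 0.91 in TSN and -0.26, -0.92, -0.99 and -0.59 in control. All 12 TSN arrays lay between 0.22 and 0.91 and all 12 control arrays between -1.06 and -0.26. Groups were apart in 1 direction at all 3 days for 28.9% of pairs, as given above. The shift was 1.32, 0.96 and 1.41 at days 3, 9 and 21 (exact permutation p = 0.0286 and adjusted p = 0.0429 at each day).

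miR-93-5p minus miR-25-3p lay between -1.17 and -0.52 on the 12 TSN arrays and between -1.13 and -0.36 on the 12 control arrays, and the arms overlapped at every day. Its difference between TSN and control was -0.11 at day 3 (exact permutation p = 0.314, adjusted p = 0.354), -0.33 at day 9 (p = 0.114, adjusted p = 0.147) and 0.17 at day 21 (p = 0.4, adjusted p = 0.4). That the day 9 difference did not pass rests on 1 array, since without control day 9 replicate 3 it was -0.45 with an exact permutation adjusted p of 0.0367. With normexp background correction the differences of days 3 and 9 were -0.36 and -0.59 (exact permutation adjusted p = 0.0321 for both). The members that share a seed, miR-106b-5p and miR-93-5p, changed unequally, while miR-93-5p and miR-25-3p, with different seeds, were not told apart on the main scale. Groups were also apart at days 3, 9 and 21 for 52.1%, 66% and 51.6% of all pairs measured on every array. An unequal change is thus not particular to these members.

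**Figure D2:**
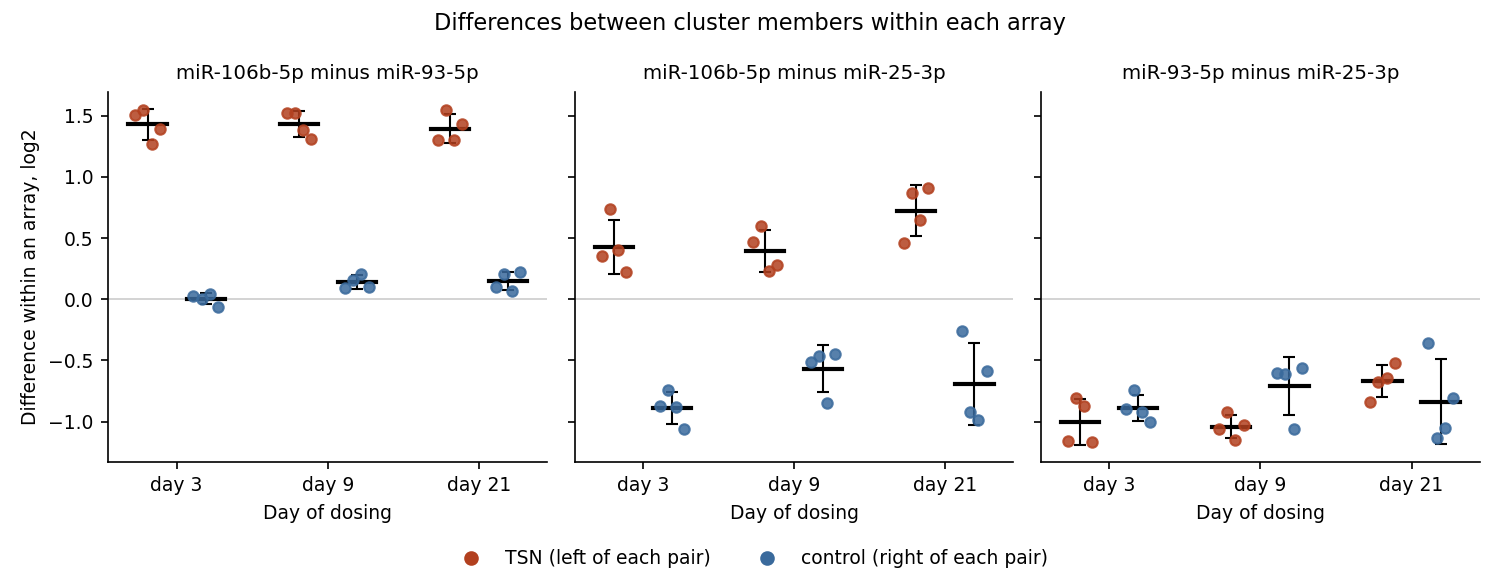
Log2 signal of 1 member minus another on the same array, by day, with TSN left of control in each pair; bars give the group mean and SD of 4 arrays. For miR-106b-5p minus miR-93-5p the TSN arrays lie between 1.27 and 1.55 and the control arrays between -0.06 and 0.22, and for miR-93-5p minus miR-25-3p the arms overlap.

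Array brightness moved with the arm, and each member's unscaled signal followed it within groups, with r of 0.925, 0.931 and 0.947 between deviations from the group means for miR-106b-5p, miR-93-5p and miR-25-3p over the 24 arrays. After scaling the r was -0.147 for miR-106b-5p (permutation adjusted p = 0.576), -0.141 for miR-93-5p (adjusted p = 0.576) and 0.438 for miR-25-3p (adjusted p = 0.148). The arrays closest in brightness across the arms were TSN day 3 replicate 2, with a 75th percentile of 737, and control day 21 replicate 3, with 609. miR-106b-5p minus miR-93-5p was 1.55 on that TSN array and 0.07 on that control array, and miR-106b-5p minus miR-25-3p was 0.74 and -0.99 on the same 2 arrays. They differ in day and slide as well as in arm. The part of brightness in the difference between arms was not tested beyond these values.

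**Figure D3:**
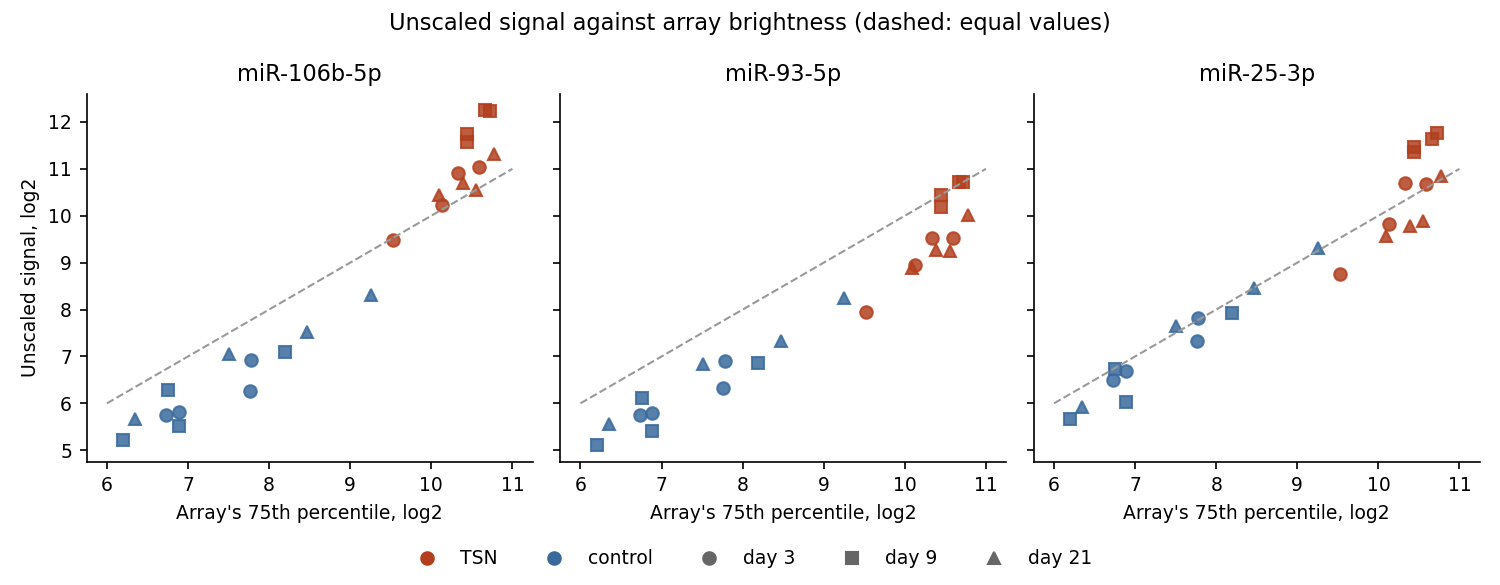
Unscaled log2 signal of each member against log2 of the array's 75th percentile, 1 point per array, with a dashed line where both are equal. The TSN and control arrays do not overlap in brightness, and the dimmest TSN array (737) lies next to the brightest control array (609).

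The members varied together between replicate arrays. Taken as deviations from the group means over all 24 arrays, scaled miR-106b-5p and miR-93-5p had a Pearson r of 0.94 (permutation p = 1e-05, the smallest that could be given; adjusted p = 3e-05) and a Spearman rho of 0.938 (p = 1e-05). miR-106b-5p and miR-25-3p had an r of 0.73 (permutation p = 8e-04, adjusted p = 0.00082) and a rho of 0.727 (p = 0.00094). miR-93-5p and miR-25-3p had an r of 0.765 (permutation p = 0.00082, adjusted p = 0.00082) and a rho of 0.68 (p = 0.0032). Without the 2 arrays farthest from the median of the first-named member, r was 0.92, 0.69 and 0.67 for the 3 pairs in this order. The median r over all 11476 pairs of miRNAs measured on every array was 0.106, with quartiles of -0.207 and 0.422.

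Within arms, miR-106b-5p and miR-93-5p kept an r of 0.883 over the 12 TSN arrays (permutation adjusted p = 0.00132) and of 0.981 over the 12 control arrays (permutation adjusted p = 0.00021). For miR-106b-5p and miR-25-3p it was 0.827 in TSN (adjusted p = 0.00499) and 0.671 in control, which did not pass (permutation adjusted p = 0.0692). For miR-93-5p and miR-25-3p it was 0.943 in TSN (adjusted p = 0.00172) and 0.594 in control, which did not pass either (permutation adjusted p = 0.102) and was 0.20 without the 2 farthest arrays. The difference in r between arms was not tested. These correlations share the array's scaling factor.

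**Figure D4:**
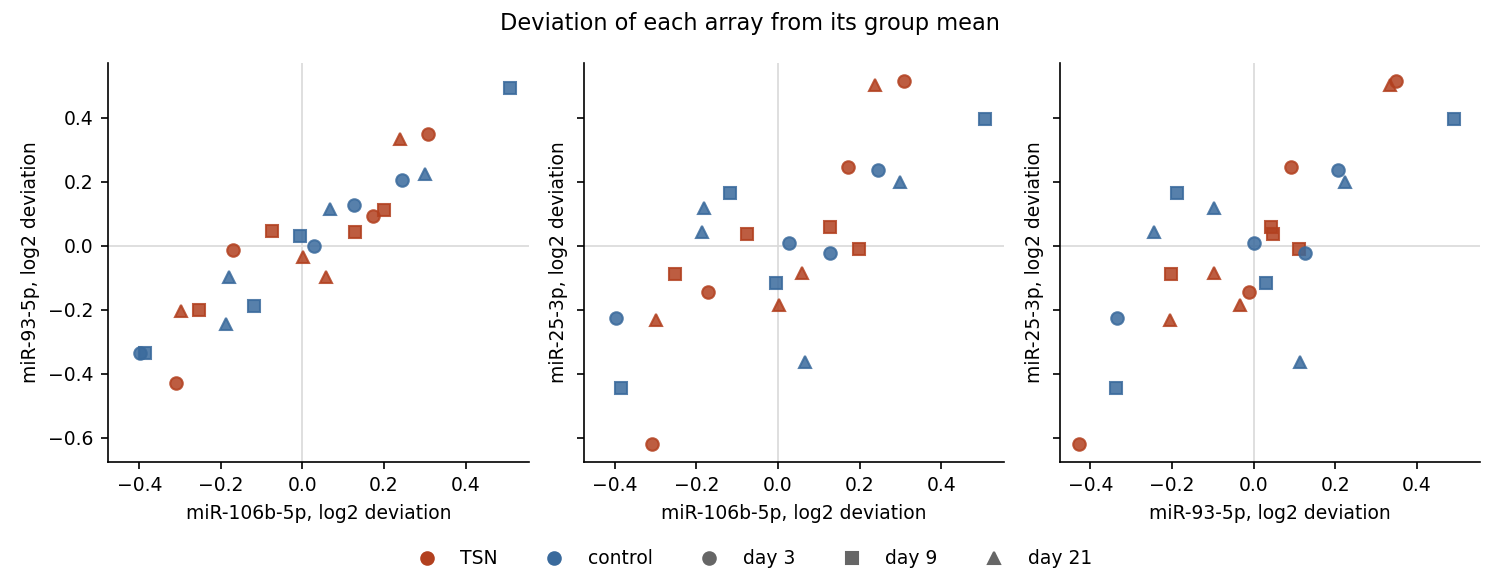
Deviation of each array from its group mean in log2 scaled signal, for the 3 pairs of members, with 1 point per array, arms by colour and days by symbol. Points lie close to a line for miR-106b-5p with miR-93-5p (r of 0.94) and spread more widely in both pairs with miR-25-3p (r of 0.73 and 0.765).

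Some miRNAs outside the cluster varied with the members at an r of like size. Over deviations from the group means, the 3 most like miR-106b-5p outside the cluster were miR-15a-5p (r = 0.929), miR-16-5p (0.893) and miR-15b-5p (0.888), among 149 candidates over 24 arrays. The same 3 led for miR-93-5p, with r of 0.938, 0.927 and 0.885 in that order, and for miR-25-3p they were miR-15a-5p (0.807), miR-486a-5p (0.8) and miR-15b-5p (0.768). Over the levels of all 24 arrays, group differences included, miR-106b-5p parted from its neighbours. It was most like miR-144-3p (r = 0.897), let-7d-5p (0.859) and miR-107-3p (0.855), while miR-93-5p and miR-25-3p ranked 14 and 17 of 151 in likeness to it. miR-93-5p and miR-25-3p were both most like miR-15a-5p (r of 0.931 and 0.939), followed by miR-15b-5p (0.929 and 0.897) and miR-486a-5p (0.872 and 0.885), and had an r of 0.921 with each other. These r are a description, since arrays of a group share a slide.

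The other strands of the 3 hairpins gave almost no signal. miR-106b-3p and miR-25-5p were well above background on 0 of 24 arrays, and miR-93-3p on 2, both of TSN day 9, so none was tested. On the dimmer control arrays this does not show absence.

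Of the other miRNAs with the miR-17 seed, miR-17-5p and miR-20a-5p come from the Mir17 cluster and miR-20b-5p from the Mir106a cluster. All 3 of the 3 tested rose at days 3 and 9, and 1 of 3 was called at day 21, against 29.3%, 27.7% and 23.1% of all tested miRNAs called higher at days 3, 9 and 21. The 1 called at day 21 was miR-17-5p, which was well above background on all 4 arrays of a group in TSN only. It was thus tested through the TSN arm and adds no independent support to these counts. For miR-20a-5p the change was 0.68, 0.75 and 0.25 at days 3, 9 and 21 (SE 0.147, limma adjusted p = 0.000635, 0.000208 and 0.185). miR-20b-5p gave 0.63, 0.67 and 0.20 at the same days (limma adjusted p = 0.0012, 0.000593 and 0.313). Neither had a TSN effect that differed between days 9 and 3 (0.07 and 0.04, limma adjusted p = 0.87 and 0.932). miR-17-5p was dim in the controls, with 0, 1 and 3 of 4 control arrays well above background at days 3, 9 and 21. It was at least 1.58-fold higher in TSN at day 3, where the measured means were -3.65 in TSN and -5.10 in control (limma adjusted p = 1.03e-07), and it also passed at days 9 and 21 (limma adjusted p = 7e-09 and 4.08e-06), with a difference of 1.08 at day 21 (SE 0.142); at day 9 most control arrays did not measure it, so no size is given. The median change of the 3 was 0.75 and 0.25 at days 9 and 21, against -0.04 and 0.01 over all tested miRNAs.

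Of the 5 other miRNAs with the miR-25 seed, only miR-92a-3p could be tested, and miR-92b-3p, miR-363-3p, miR-32-5p and miR-367-3p were well above background on 0 arrays. For miR-92a-3p the change was 0.44, 1.01 and -0.34 at days 3, 9 and 21 (SE 0.18, limma adjusted p = 0.0488, 7.62e-05 and 0.143), so that it rose at the first 2. Its effect differed between days 21 and 9 by -1.35 (SE 0.255, limma adjusted p = 0.000949), in the direction seen for miR-25-3p.

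**Figure D5:**
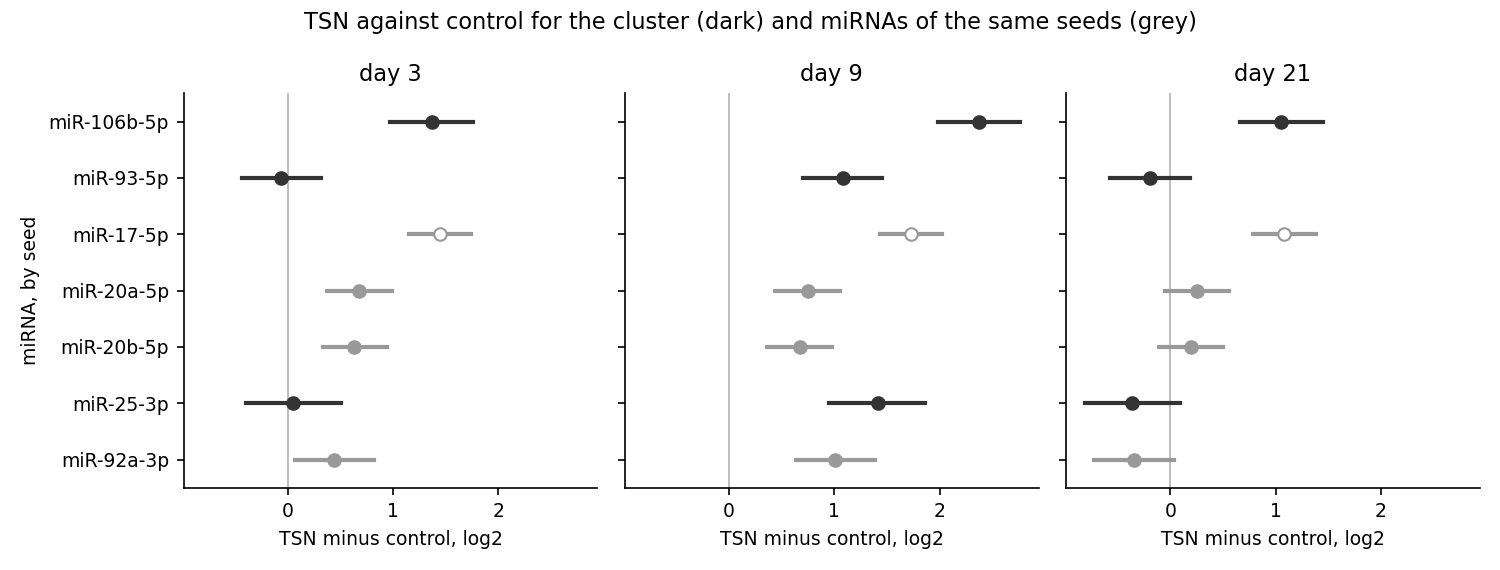
TSN minus control in log2 scaled signal at each day, for the 3 members (dark) and for miRNAs of other loci with their seeds (grey), with 95% intervals from the limma fit; open circles mark miR-17-5p, which was not well above background on every control array. At days 3 and 9 the miR-17-5p points are fitted values and not sizes, since 0 and 1 of 4 control arrays measured it. miR-106b-5p lies above 0 at all 3 days, and miR-93-5p and miR-25-3p lie above 0 at day 9 with intervals that span 0 at days 3 and 21.

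Some red cell miRNAs changed in the same direction as the cluster at day 9. The 5 measured miRNAs of a 6-member red cell list are miR-451a and both strands of Mir144, which are made in erythroid cells, and miR-486a-5p and miR-16-5p, which are abundant there and occur in other cells too. Their summed scaled signal ranged over 28.3 to 48, 75 to 94.6 and 41.6 to 62.9 in TSN at days 3, 9 and 21, and over 33.2 to 57, 33.2 to 65.8 and 53.7 to 95 in control, with all 5 well above background on all 24 arrays. Such sums are of unlogged signal, and this one is mostly miR-451a, whose group means were 5.03 to 6.18 in log2. At day 9, 3 of 5 rose, against 27.7% of all tested miRNAs called higher (miR-451a by 0.81, miR-144-3p by 1.60 and miR-486a-5p by 1.28, limma adjusted p = 0.00541, 1.3e-05 and 4.13e-05), and miR-144-5p fell by 0.81 (adjusted p = 0.0255). At day 3, where 29.3% were called higher, miR-144-3p rose by 0.65 and miR-486a-5p and miR-16-5p fell by 0.63 and 1.08 (limma adjusted p = 0.0318, 0.0193 and 5.15e-05), and at day 21 miR-144-5p and miR-16-5p fell by 1.07 and 1.33 (adjusted p = 0.00667 and 6.54e-06). Over all tested miRNAs, 18.6%, 34.5% and 21.8% were called lower at days 3, 9 and 21. The list's median was -0.43, 0.81 and -0.48 at days 3, 9 and 21, against 0.10, -0.04 and 0.01 over all tested miRNAs. The TSN effect at day 9 was called larger than that at day 3 in 2 of 5, against 3.85% of tested miRNAs, and the effect at day 21 was called smaller than that at day 9 in 4 of 5, against 11.8%. The part of red cell RNA in the cluster's day 9 levels was not tested.

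Markers of other sources are counted against the shares of all tested miRNAs called higher (29.3%, 27.7% and 23.1%) or lower (18.6%, 34.5% and 21.8%) at days 3, 9 and 21. Of 3 tested miRNAs of a 4-member striated muscle list, all rose at day 9, and none passed at day 21. All 3 were tested through TSN groups only, since in no control group did all 4 arrays measure any of them. Their count at day 9 is thus no independent support when set against the share of all tested miRNAs. The list's summed scaled signal was 0.472 to 4.88 in TSN day 9 and 0.0408 to 0.0924 in control day 9. In control day 9 only miR-1a-3p was measured, on 1 of 4 arrays. Of 4 tested members of a 5-member hepatocyte list, 3 rose at day 9, and 1 rose at each of days 3 and 21. Among them, miR-148a-3p and miR-101a-3p were tested through TSN groups only, with 2 and 1 of 4 control day 9 arrays well above background. miR-192-5p, well above background on all 24 arrays, rose by 1.41 at day 9 (limma adjusted p = 0.0201), with overlapping groups. The liver miRNA miR-122-5p was not called at day 9, with a difference of 1.75 (95% interval 0.07 to 3.44, limma adjusted p = 0.0643) and overlapping groups. It was well above background on 2 of 4 control day 9 arrays. The summed hepatocyte signal was 0.535 to 1.08, 0.597 to 5.01 and 0.505 to 0.695 in TSN at days 3, 9 and 21. In control it was 0.368 to 0.536, 0.331 to 0.503 and 0.449 to 1.01. The day 9 median was 0.834 in TSN and 0.389 in control, so the top of the TSN day 9 range lay far above the middle of that group. The platelet list had 2 of 6 higher at day 3, 3 lower at day 9 and 4 lower at day 21, with summed signals of 9.04 to 13.9, 9.41 to 11.3 and 7.98 to 11.1 in TSN and 6.72 to 9.84, 11.8 to 16.1 and 10.1 to 19.1 in control. Only TSN arrays measured the platelet miRNA miR-191-5p, which was not called at any of these days. Of 4 tested leukocyte miRNAs, 1 was higher and 2 lower at day 3, 2 were lower at day 9 and 3 at day 21. Among those called lower at each day was miR-150-5p, tested through TSN groups only. It was measured on 2, 1 and 3 of 4 control arrays at days 3, 9 and 21. Its falls thus rest in part on control arrays that did not measure it. The leukocyte sums were 1.26 to 1.73, 0.578 to 0.936 and 0.835 to 1.38 in TSN at these days. In control they were 0.848 to 1.22, 1.54 to 1.84 and 1.19 to 3.59. By group means the platelet sum is mostly miR-21a-5p and the leukocyte sum mostly miR-142a-3p, so neither stands for its whole list. The part of these sources in the cluster's levels was not tested.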

How the data were processed

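The scanner files, 1 per array, hold spot intensity as deposited by the authors. Background was subtracted by Feature Extraction 10.7.1.1, per the file headers, which record no scaling between arrays. The deposited sheet of the authors' processed values was taken as log2, since it rose with the log2 of the scanner signal (r of 0.955 to 0.972), and its scaling and centring stay unknown; its column medians were 4.37 to 4.40. It was used as an alternative only. How exosomes were isolated is not given in the sources used here.

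Control and outlier-marked spots were left out, the rest were averaged per probe (median 15 spots, 0 saturated), and the 261 probes with more than a 0.5 share of spots well above background on every one of the 24 arrays gave the 75th percentile by which an array's values were divided. A floor of 0.0135 was set before log2. The brighter of a miRNA's probes stood for it, and the number of arrays limits the precision. A miRNA was tested if well above background on all 4 arrays of a group (441), in 1 limma fit over 6 groups (limma 3.58.1, R 4.3.3, data.table version 1.17.8) with two-sided Benjamini-Hochberg adjusted p at 0.05, for each of 12 contrasts. Differences between members were tested exactly over 70 allocations, and co-variation with 100000 permutations within groups. The fit was tested on simulated data. Where a group had no array well above background, the fold is a bound against the lowest signal well above background, or the miRNA's own signal where higher, on each array.

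Slides, read from the headers, held control days 3 and 9 (slide 1), control day 21 (slide 2), TSN day 3 (slide 3), and TSN days 9 and 21 (slide 4). Replicate numbers are slide columns. In TSN against control at day 9, same-numbered arrays deviated together in 4 of 4 pairs (r of 0.204 to 0.357), and in no other comparison did all 4 pairs pass 0.1. Named miRNAs are the members, their other strands, miRNAs with their seeds, the 3 most like each member outside the cluster, and marker lists. Members and lists were chosen with earlier results of these data known.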

Additional observations from a re-analysis of the deposited data

Results flagged for a closer look

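The difference between TSN and control changed between days for each member. This was tested by the interaction term of the limma fit, with adjusted p over 441 miRNAs. Day 9 minus day 3 gave 1.00 for miR-106b-5p, 1.13 for miR-93-5p and 1.35 for miR-25-3p. Day 21 minus day 9 gave -1.32 for miR-106b-5p, -1.27 for miR-93-5p and -1.77 for miR-25-3p. Both sets share the day 9 groups, and slide differences do not cancel in either. No array of any group stood apart from its 3 fellows in the scaled level of a member by Dixon's criterion, in 18 groups examined.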

How the results depend on the processing

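Over 16 alternatives and the removal of each array, the rise of miR-106b-5p against control passed at all 3 days (0.98 to 4.31, 1.96 to 5.94 and 0.86 to 3.77), as did the day 9 rises of miR-93-5p (0.64 to 4.65) and miR-25-3p (1.22 to 4.98). Scaling sets the small differences. For miR-93-5p at day 3 these were 0.66 with the 75th percentile over all probes, 1.05 with labelling spike-ins, 2.88 with hybridisation spike-ins, 2.80 with no scaling, 0.03 with total gene signal, 0.06 with the mean of its probes and 0.18 with its other probe. At day 21 they were 0.13, 0.62, 2.52 and 2.36 under the first 4 of these and 0.11 with its other probe. For miR-25-3p they were 1.16, 2.99 and 2.91 at day 3 with labelling spike-ins, hybridisation spike-ins and no scaling, and 0.46, 2.36 and 2.20 at day 21. With hybridisation spike-ins or no scaling both members passed in limma at both days, and with labelling spike-ins at day 3, as did miR-93-5p at day 3 with all probes. Much of this is a shift of all miRNAs, whose median moved by 1.01, 2.31 and 2.20 at day 3 and by 0.66, 2.18 and 2.07 at day 21 under those 3 settings.

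The effect at day 9 minus day 3 passed no longer with hybridisation spike-ins (1.64, 1.77 and 1.99 for miR-106b-5p, miR-93-5p and miR-25-3p) and no scaling (1.71, 1.84 and 2.06), nor for miR-106b-5p with quantile normalization (0.72) or no filter (1.00). Day 21 minus day 9 missed with hybridisation spike-ins (-2.18, -2.13 and -2.63). So did TSN day 21 against TSN day 9 (-1.24, -1.20 and -1.57), also with no scaling (-1.21, -1.17 and -1.53). The cause was not tested. Other changes of sign lay near 0. TSN day 21 minus TSN day 3 was -0.02 and 0.00 for miR-106b-5p with all probes and with its other probe, and 0.04 for miR-25-3p with no scaling. Control day 9 minus control day 3 was -0.27, -0.10, -0.16 and -0.17 for miR-106b-5p with all probes, labelling spike-ins, hybridisation spike-ins and no scaling, and 0.03 for miR-93-5p with normexp. miR-93-5p minus miR-25-3p was 0.00 at day 9 with the authors' values, 0.02 and 0.16 at day 3 with the mean of probes and the other probe, and -0.36 and -0.59 at days 3 and 9 with normexp, which then passed.

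Leaving out 1 array changed no limma call of TSN against control. It moved miR-93-5p at day 3 between -0.17 and 0.09, miR-25-3p at day 3 between -0.12 and 0.26, and TSN day 21 minus TSN day 3 between -0.08 and 0.13 for miR-106b-5p and -0.08 and 0.18 for miR-93-5p. Control day 9 minus control day 3 lay between -0.06 and 0.24 for miR-106b-5p and -0.19 and 0.09 for miR-93-5p, and miR-93-5p minus miR-25-3p at day 9 between -0.45 and -0.28, where the value without control day 9 replicate 3, -0.45, passed (exact permutation adjusted p = 0.0367).

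With replicate numbers as a block, no call of a member changed in limma (1.37, 2.37 and 1.05 for miR-106b-5p at days 3, 9 and 21). The paired sign-flip test of the differences between members, with 4 pairs, cannot give a p below 0.125. miR-106b-5p minus miR-93-5p kept 1.43, 1.29 and 1.24, and miR-106b-5p minus miR-25-3p kept 1.32, 0.96 and 1.41, at an adjusted p of 0.161 by that exact test.

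Calls over all miRNAs moved with scaling. At day 3, 129 were higher and 82 lower, against 300 and 23 with labelling spike-ins, 387 and 2 with no scaling, 215 and 68 with the authors' values and 23 and 348 with normexp. At day 9, 122 were higher and 152 lower, against 323 and 24, 394 and 5, 255 and 77, and 30 and 372 under the same settings, and at day 21, 102 and 96 against 232 and 16, 414 and 0, 141 and 70, and 17 and 342. Control arrays were dimmer and measured fewer miRNAs, which limits statements on the dim strands and seed relatives.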
